A study of Bos taurus with 12 samples.

Results

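Gene expression in the unperturbed cattle blastocyst was described from 7 wild-type Bos taurus embryos, which are the 7 samples of 12 in the series whose genotype label is wild type. They were selected by that label alone. The embryos were produced in vitro and collected at day 7.5 of development as controls for embryos lacking exon 1 of OCT4, which are not described here. The labels give no sire, dam, sex, culture batch or collection date, and they do not say whether the controls had been electroporated. They list the embryos as separate samples, but do not say whether they came from separate cultures. Tests therefore measure the spread between these samples, in which technical spread from extraction and amplification is not separated. Each library came from part of the lysate of 1 embryo, with amplification of the cDNA before sequencing.

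The blastocyst is the stage at which the embryo first forms distinct tissues. An outer epithelium, the trophectoderm, pumps fluid into a central cavity and later forms the embryonic part of the placenta. The inner cell mass separates into the pluripotent epiblast, the source of the body of the fetus, and the hypoblast, which lines the yolk sac. In cattle the blastocyst hatches and elongates before it attaches to the uterus, so at this stage it is still free in the uterine lumen or, here, in culture. A library from a whole embryo mixes these tissues, and fewer cells of a type cannot be told apart from less RNA per cell.

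The count table lists 27607 genes by Ensembl identifier. The reference table used here (RefSeq, assembly ARS-UCD2.0) paired 0 of them with a symbol, so the functions of single genes are not given, and the label blastocyst was not checked against marker genes of its tissues. Genes are therefore described by their rank, abundance class and pattern over embryos, and 4 identifiers are printed. Levels are given as CPM, the reads of a gene scaled to a library total of 1000000 reads assigned to genes. They are not corrected for gene length, so levels of different genes are shares of reads and not numbers of molecules.

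Libraries were of similar depth. Embryos 1 to 7, numbered in the order of deposition, had 3163372, 2762133, 3638011, 3365072, 4781663, 3481446 and 3853524 reads assigned to genes. Embryo 5 was the deepest and embryo 2 the shallowest. At these depths 3 reads corresponded to 0.627 to 1.09 CPM. The 7 libraries were counted as separate samples because the labels list them so. Read counts differed beyond counting error in all 21 pairs of libraries (chi-square divided by its degrees of freedom at least 7.6). That comparison covers counting error only and is no evidence on the origin of the libraries.

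A day 7.5 blastocyst library held reads of 16369 to 17760 genes. The numbers of genes with at least 1 read were 16473, 16369, 17760, 17280, 17045, 16756 and 16768 in embryos 1 to 7, a mean of 16922 ± 484 (SD, n = 7). Embryo 3 had the most and embryo 2, the shallowest, the fewest. With every library thinned to the 2762133 reads of embryo 2, the numbers were 16292, 16369, 17252, 16962, 16344, 16476 and 16328, a mean of 16575 ± 377 (SD, n = 7). Embryos 3 and 4 remained above the other embryos at equal depth, and the remaining 5 embryos lay within 184 genes of each other. A stricter minimum of 3 reads left 14710 ± 282 genes and one of 10 reads left 12113 ± 298 genes (SD, n = 7 for both). The number of genes was still rising with depth. It was 11138 ± 186 at 138106 reads, 14304 ± 241 at 690533 reads and 15521 ± 299 at 1381066 reads per embryo (SD, n = 7). The total number of reads was not shown to be related to the number of genes detected over these 7 embryos (Pearson r = 0.398, exact permutation p = 0.376, Spearman rho = 0.607, exact permutation p = 0.167, two-sided, adjusted p = 0.627 and 0.333 over the 5 relations examined). Without embryos 5 and 2, the farthest from the median depth, r was 0.311.

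Genes fell into a large shared set and a long tail of scarce ones. Of the 27607 identifiers, 21582 had a read in at least 1 wild-type embryo and 6025 had none. All 7 embryos held reads of 13317 genes, 61.7% of those detected, and these had a median level of 27.6 CPM. The numbers detected in 6, 5, 4, 3 and 2 embryos were 1262, 1027, 960, 1124 and 1421. A single embryo held all reads of 2471 genes. Their mean level over all 7 embryos, including those without a read, had a median of 0.0452 CPM. Only 563 of these 2471 genes reached 3 reads and 26 reached 10 reads, and the highest count among them was 36. Embryo 3 contributed 640 of the genes seen in 1 embryo alone, embryo 4 contributed 373 and embryo 2 contributed 200. Genes missed in 1 embryo alone were most frequent in embryos 1, 2 and 6, with 265, 253 and 234 genes, and least frequent in embryo 3, with 93. A gene with 0 reads was not detectable at this depth, which allows up to the 3-read level of that library, and intervals of this kind cover counting error only.

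**Figure D1:**
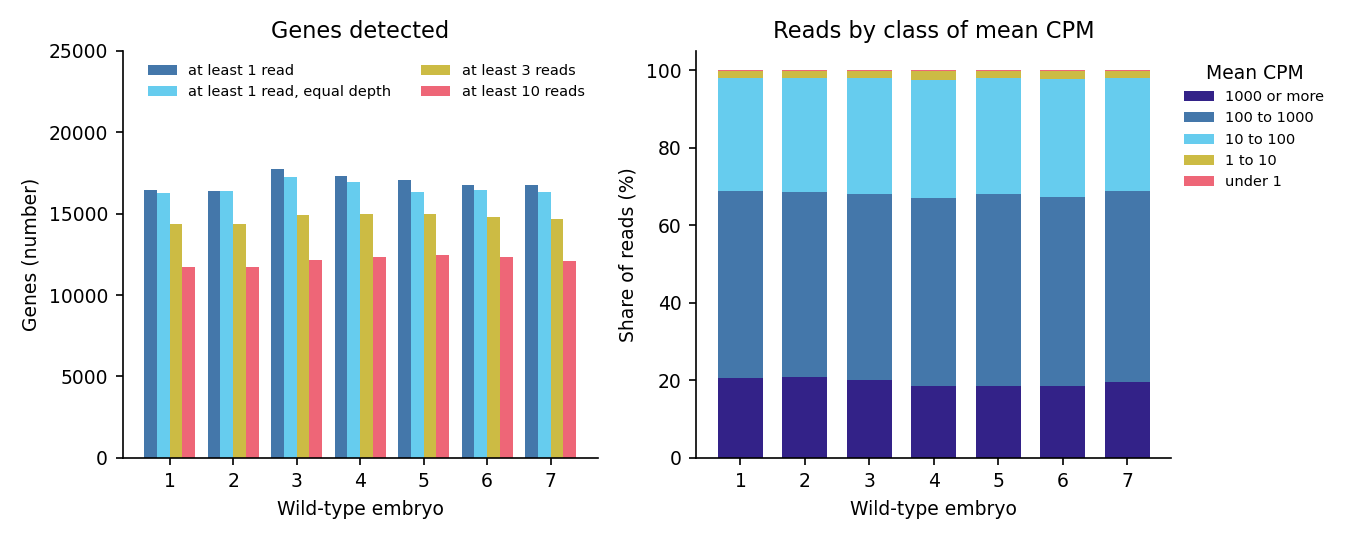
Left, number of genes detected in each wild-type embryo at 4 minimums, with bars starting at 0. Right, share of reads in each embryo taken by genes of 5 classes of mean CPM over the 7 embryos. The bars for at least 1 read range from 16369 to 17760 genes, and the class shares on the right differ little between embryos, with 18.5% to 20.9% of reads in genes at 1000 CPM or more.

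Most reads came from genes of middle and high abundance, in proportions that varied little between embryos. The 82 genes with a mean of 1000 CPM or more took 19.5% ± 0.985 of reads (SD, n = 7). The 2127 genes from 100 to 1000 CPM took 48.6% ± 0.666, and the 7375 genes from 10 to 100 CPM took 29.8% ± 0.567 (SD, n = 7 for both). Below these, 4851 genes from 1 to 10 CPM took 1.90% ± 0.205 and 7147 genes under 1 CPM took 0.206% ± 0.0244 (SD, n = 7 for both). Together 9584 genes averaged 10 CPM or more, and 8020 genes reached 10 CPM in every embryo. Every gene of both classes at 100 CPM or more was detected in all 7 embryos, as were 7344 of the 7375 genes from 10 to 100 CPM. In the class from 1 to 10 CPM 73.8% of genes were detected in all embryos, and under 1 CPM 2.55% were.

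The share of the class from 1 to 10 CPM was 1.72%, 1.93%, 1.83%, 2.197%, 1.73%, 2.17% and 1.74% in embryos 1 to 7. Embryos 4 and 6 were the highest of the 7 in this class. The same embryos, with embryo 5, were lowest in the class of 1000 CPM or more, at 18.5%, 18.6% and 18.6%, against 19.6% to 20.9% in embryos 1, 2, 3 and 7. The number of genes needed to account for the first 50% of reads was 855, 844, 884, 934, 915, 893 and 853. Embryo 4 spread its reads over the most genes and embryo 2 over the fewest. The first 25% of reads came from 129 to 163 genes and the first 90% from 5571 to 5916 genes.

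The most abundant gene, ENSBTAG00000043570, ranked first in all 7 embryos. Its level was 26025, 28792, 27660, 21607, 20858, 21640 and 24382 CPM in embryos 1 to 7, a mean of 24424 ± 3176 CPM (SD, n = 7). It was highest in embryos 2 and 3 and lowest in embryos 4, 5 and 6. This gene alone took 2.09% to 2.88% of the reads of a library. Its read counts, from 72709 to 100628, make counting error small, at a coefficient of variation (CV, the SD as a percentage of the mean) of 0.343% against the spread observed of 13.003%.

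The gene in second place by mean level ranked second in every embryo as well, with 8225 to 12918 CPM and a mean of 10219 ± 1905 CPM (SD, n = 7). It showed the same division as the first gene, with 8351, 8650 and 8225 CPM in embryos 4, 5 and 6 and 10203 CPM or more in the other embryos. The gene in the third place had a mean of 7731 ± 211 CPM (SD, n = 7) and the smallest spread among the 20 most abundant genes, with a CV of 2.73% and values from 7388 to 8083 CPM. Levels then declined slowly, to 2460 CPM at rank 20 and 1296 CPM at rank 50. The 10 most abundant genes of each library took 7.13% to 9.10% of its reads and the 50 most abundant 15.1% to 17.6%.

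The membership of the top of the list was partly shared. Of the 20 most abundant genes of each embryo, 13 were among the 20 of every embryo, and 29 genes in all occurred in at least 1 of these lists. Among the 20 genes with the highest mean, the CV ranged from 2.73% to 38.1% with a median of 14.0%, and 12 of the 20 had a CV under 15%. The gene of rank 16 varied most, from 1071 CPM in embryo 7 to 3932 CPM in embryo 5, a 3.67-fold range. Its rank within an embryo ran from 12 to 81. The gene of rank 5 was at 7913 and 8054 CPM in embryos 2 and 3 and at 3630 to 4217 CPM in embryos 4, 5 and 6, a 2.22-fold range. The share of the 50 most abundant genes was not shown to be related to the total number of reads (Pearson r = -0.65, exact permutation p = 0.101, adjusted p = 0.409, Spearman rho = -0.536, exact permutation p = 0.236, n = 7). Without embryos 5 and 2, the farthest from the median depth, r was -0.13 over a narrower range of depth.

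**Figure D2:**
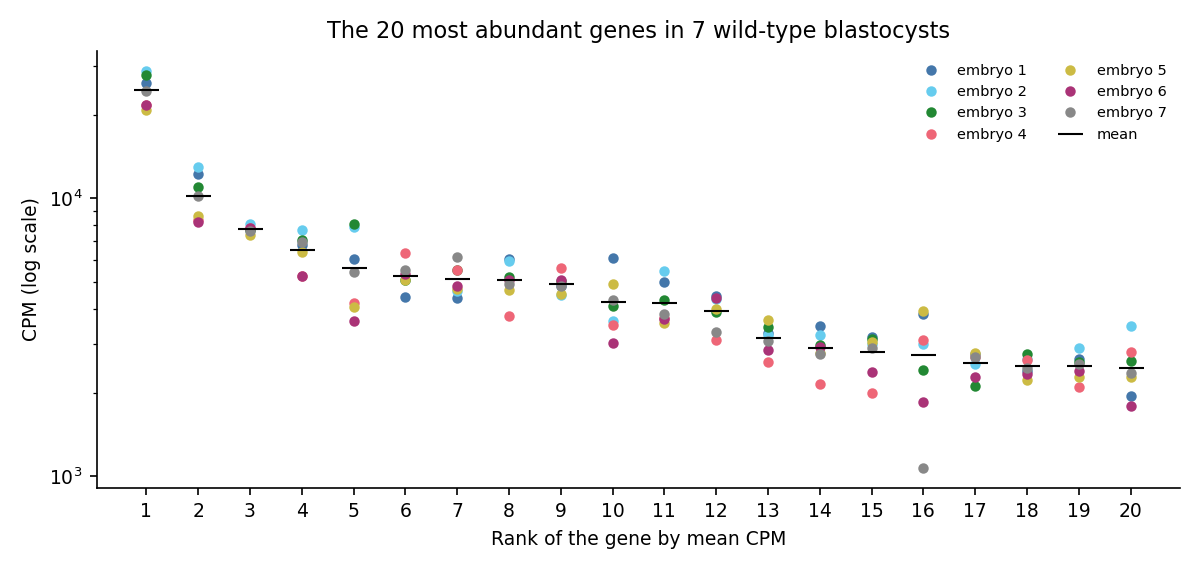
CPM of the 20 genes with the highest mean, on a log scale, against their rank. Each point is 1 wild-type embryo and each black line the mean of 7. The gene of rank 3 has nearly coincident points, from 7388 to 8083 CPM, while that of rank 16 extends down to 1071 CPM in embryo 7.

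Spread between embryos was examined in the 9584 genes with a mean of 10 CPM or more. Their CV had a median of 22.1% with quartiles of 15.9% and 31.5%. In 533 genes (5.56%) the CV was under 10%, in 645 genes (6.73%) it was over 50% and in 83 genes (0.866%) it was over 100%. The highest embryo exceeded the lowest by less than 1.5-fold in 1825 genes (19.04%). It did so by 2-fold or more in 4135 genes (43.1%) and by 10-fold or more in 202 genes (2.11%), where genes with 0 reads in an embryo are counted with the last 2 groups. The typical gene thus ranged 1.88-fold from the lowest to the highest embryo.

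Spread fell with abundance. The median CV was 13.5% in genes at 1000 CPM or more, 16.4% from 100 to 1000 CPM and 24.2% from 10 to 100 CPM. Counting error alone would give median CVs of 1.41%, 4.10% and 9.08% in these classes. It accounted for a median of 1.03%, 5.72% and 14.5% of the variance of a gene, so at 10 CPM or more most of the spread was beyond counting error. Amplification noise is part of that remainder and was not measured separately. In scarcer genes counting error was larger, with a median share of 24.3% of the variance from 1 to 10 CPM and 59.9% under 1 CPM. Among the 82 genes at 1000 CPM or more, 25 had a CV under 10% and 1 had a CV over 50%, at 52.3%.

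Whether single genes spread more or less than others of like abundance was tested with edgeR (quasi-likelihood fit with an intercept only, each gene's quasi-dispersion set against the fitted distribution of such values, one-sided in each direction, Benjamini-Hochberg adjustment). Of 9584 genes, 0 (0%) had a spread above the trend at an adjusted p under 0.05, and 0 (0%) had one below it. At an unadjusted p under 0.05 there were 556 of the 9584 genes above and 450 below. Under the fitted distribution about 1 in 20 genes would fall there in each direction. Both counts lie near that share, in part because the distribution was fitted to these same genes. They mark no set of variable or steady genes and do not show that none exists. The common dispersion was 0.085. DESeq2 marked 151 of the same 9584 genes as having a dispersion far above its fitted curve. Without embryo 6 the edgeR test called 13 genes above the trend and without embryo 4 it called 2, with a common dispersion of 0.07 and 0.0817. Each gene was then set instead against 1 common spread for its abundance (chi-square with 6 degrees of freedom, chosen after the data were examined). By that test 1090 genes (11.4%) lay above the trend, with CVs from 25.4% to 263.2%. Below it were 0 genes, or 632 of the 9584 at an unadjusted p under 0.05. Under the edgeR test no gene of either tail stood outside the fitted distribution of spreads over all 7 embryos. That distribution was fitted to these same genes. Even the gene with the smallest CV, which was under its counting error, had an adjusted p of 0.415 in the edgeR test for a low spread. The gene with the largest spread over the trend, with 879 reads in embryo 7 and at most 2 elsewhere, had one of 0.0661 for a high spread. The counts of 0 above and below the trend are therefore no evidence that variable or steady genes are absent.

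**Figure D3:**
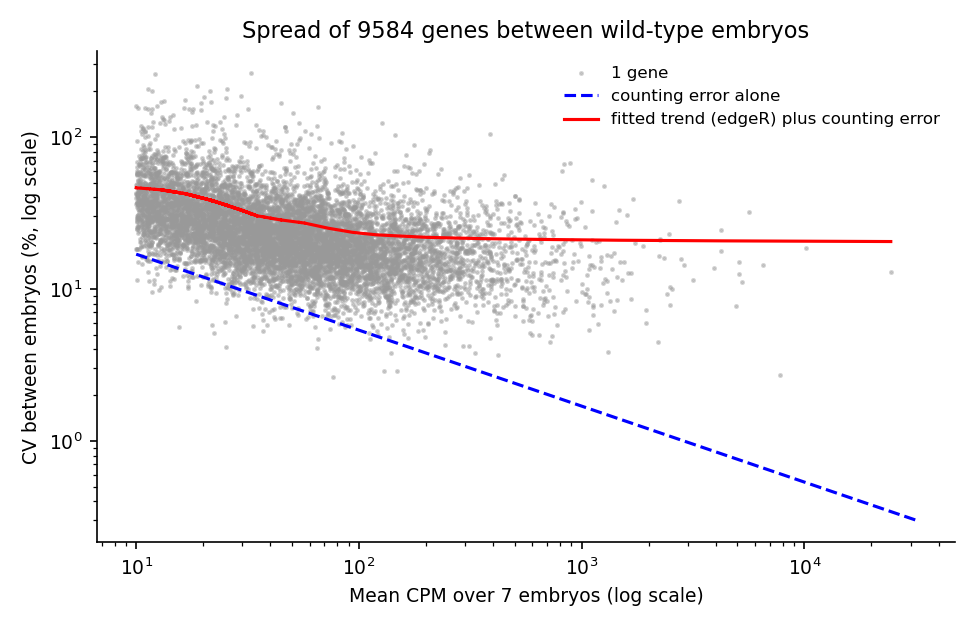
CV between the 7 embryos against mean CPM for the 9584 genes with a mean of 10 CPM or more, both on log scales. Each point is a gene, the dashed line is the CV that counting error alone gives at the depths of these libraries, and the solid line adds the dispersion trend fitted by edgeR. Most points lie above the dashed line, and the median CV falls from 24.2% at 10 to 100 CPM to 13.5% at 1000 CPM or more.

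The steadiest genes covered a wide range of abundance. The 20 genes with the smallest CV had CVs from 2.64% to 4.80% and mean levels from 25.3 to 7731 CPM. The smallest CV belonged to ENSBTAG00000009689, with 77.4, 76.8, 79.4, 78.8, 75.1, 75.3 and 74.0 CPM in embryos 1 to 7, a mean of 76.7 ± 2.02 CPM (SD, n = 7). All values lay within 5.5 CPM of each other. Its counts, 212 to 359 reads, give a counting CV of 6.11%, so the observed 2.64% was smaller than counting error, and no spread beyond it was detectable at this depth (edgeR adjusted p for a spread below the trend = 0.415). The second smallest CV was that of the third most abundant gene, with 7725, 8083, 7699, 7798, 7388, 7811 and 7614 CPM. There the observed 2.73% exceeded a counting CV of 0.609%. Over these 20 genes the highest value fell in embryo 1 for 5 genes, in embryo 4 for 4, in embryos 3 and 7 for 3 each, in embryos 2 and 5 for 2 each and in embryo 6 for 1.

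The 20 genes with the largest CV had CVs from 156.1% to 263.2% and mean levels from 10.0 to 65.6 CPM. The 2 highest embryos of each gene held 79.2% to 100% of its summed CPM. In 10 of them embryo 6 was highest, in 6 embryo 4, in 2 embryo 7 and in 1 each embryo 1 and embryo 5. Some of these genes reached the mean of 10 CPM only through their highest embryos. The concentration in few embryos therefore follows in part from the choice by mean and CV. The largest CV, and the largest spread over the trend, was that of ENSBTAG00000015792. It had 228.1 CPM from 879 reads in embryo 7, 2 reads each in embryos 4 and 5 and 0 reads in the other 4 embryos (mean 32.7 ± 86.2 CPM, SD, n = 7, edgeR adjusted p for a spread above the trend = 0.0661). Embryo 7 thus held 99.6% of its summed CPM. The gene with the second largest CV had the same pattern, with 83.0 CPM in embryo 7 and at most 0.837 CPM in the other 6. These were the 2 of 9584 genes with over 90% of their summed CPM in 1 embryo.

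The second largest spread over the trend was that of ENSBTAG00000021119, with 0, 0, 4.40, 148.9, 0.209, 263.4 and 42.6 CPM in embryos 1 to 7 (mean 65.6 ± 102.6 CPM, SD, n = 7, edgeR adjusted p = 0.0661). Embryos 6, 4 and 7 were high, in that order, and embryos 1, 2 and 5 held 0, 0 and 1 reads. A further set was nearly limited to embryos 2 and 4. Of 5 genes with over 95% of their summed CPM in 2 embryos, and no more than 90% in 1, 4 were in embryos 2 and 4 and 1 was in embryos 4 and 6. The most abundant of these 4, by mean level, had 135.0 CPM in embryo 2, 171.5 CPM in embryo 4, 5.22 CPM in embryo 3 and at most 0.418 CPM elsewhere. Another had 35.8 and 115.0 CPM in embryos 2 and 4 and 0 reads in the other 5.

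**Figure D4:**
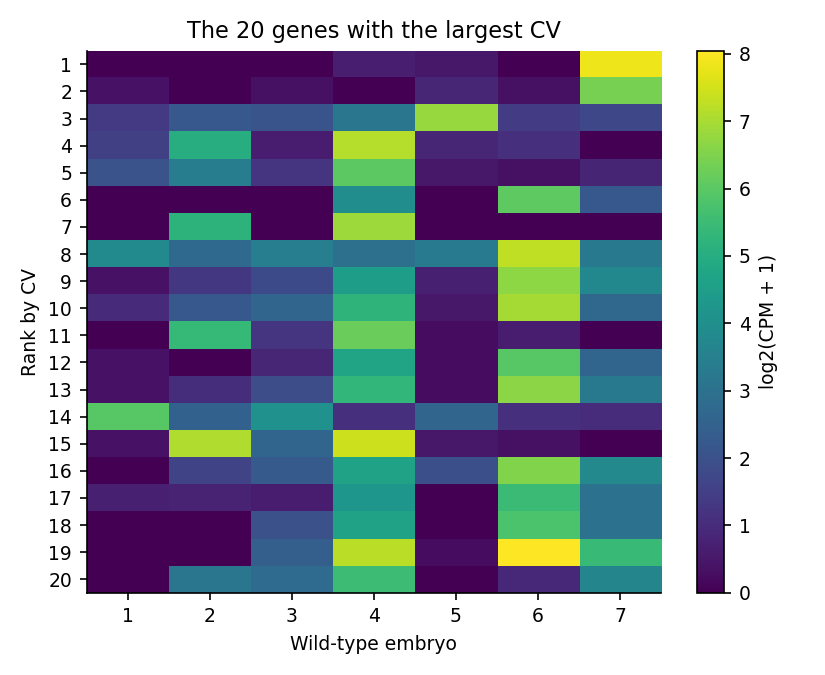
The 20 genes with the largest CV among those with a mean of 10 CPM or more, 1 row each in order of CV, in the 7 wild-type embryos. Colour gives log2(CPM + 1). Rows 1 and 2 are high in embryo 7 alone, rows 4, 7, 11 and 15 in embryos 2 and 4, and many others in embryos 4 and 6, with embryo 6 highest in 10 rows and embryo 4 in 6.

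Complete absence was rare among genes at this level. Of the 9584 genes, 31 had 0 reads in at least 1 embryo: 20 in 1 embryo, 5 in 2, 3 in 3, 2 in 4 and 1 in 5 embryos. Embryos 1 and 2 had 0 reads of 15 and 14 of them and embryos 4 and 6 of 2 and 3. Such genes reached the minimum mean through the embryos in which they were high, so these counts follow in part from that minimum. A gap of at least 8-fold between neighbouring embryos, on the scale of CPM plus 1, occurred in 20 genes (0.209%). The division separated 1 embryo from 6 in 8 of these 20 genes, in 4 with the single embryo low and in 4 with it high. Embryo 4 was on the high side of the gap in 14 of the 20 genes and embryo 5 in 6. A larger number of genes, 43 (0.449%), had over 50% of their summed CPM in 1 embryo. That embryo was embryo 6 in 27 genes, embryo 4 in 8, embryo 5 in 3, embryos 2 and 7 in 2 each, embryo 1 in 1 and embryo 3 in 0. Genes of this kind, too, could reach the minimum mean through the embryo in which they were high.

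The embryos differed along 1 main axis. Spearman correlations of CPM over the 9584 genes lay between 0.852 and 0.944 for the 21 pairs of embryos, with a median of 0.921, as a description over genes that are not independent. The closest pair was embryos 1 and 5 and the most distant embryos 2 and 6. The median correlation of an embryo with the other 6 was 0.93, 0.922, 0.939, 0.907, 0.933, 0.879 and 0.927 for embryos 1 to 7, lowest in embryo 6 and next in embryo 4. Embryo 6 correlated best with embryo 4, at 0.928. In a principal component analysis of log2(CPM + 1), the first component held 41.7% of the variance, the second 16.4% and the third 11.9%. Scores on the first were -26.0, -24.0, -6.40, 31.7, -24.9, 46.6 and 3.07. Embryos 1, 2 and 5 lay close together at one end, embryos 3 and 7 in the middle, and embryos 4 and 6 at the other. On the second component embryo 2 stood at 32.4 and embryo 4 at 13.3, with embryos 1 and 7 lowest at -16.6 and -15.8.

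The embryos did not lie in order of sequencing depth along this axis. Embryos 4 and 6, with 3365072 and 3481446 reads, lay in the middle of the range of depth. The score was not shown to be related to total reads (Pearson r = -0.0937, exact permutation p = 0.835, Spearman rho = 0.107, exact permutation p = 0.84, adjusted p = 0.835 and 0.84), and r without embryos 5 and 2 was 0.123. For genes detected at equal depth r was 0.313 (exact permutation p = 0.545, rho = 0.571, exact p = 0.2, adjusted p = 0.682 and 0.333), and 0.836 without embryos 3 and 4. For the share of the 50 most abundant genes r was -0.606 (exact permutation p = 0.163, rho = -0.5, exact p = 0.267, adjusted p = 0.409 and 0.333), and -0.297 without embryos 2 and 1. These were 5 relations over 7 embryos, with two-sided tests adjusted together, and the 3 with the score were chosen after the data were examined.

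Single genes followed the axis in both directions. Embryos 4 and 6 were the highest pair in 1230 of the 9584 genes (12.8%) and the lowest pair in 1262 (13.2%), where an equal share of the 21 pairs would be 4.76% each. The next most frequent highest pair was embryos 1 and 5, with 786 genes (8.20%). The 1230 genes took 10.1%, 9.92%, 11.1%, 16.0%, 10.5%, 17.4% and 11.9% of reads in embryos 1 to 7, and the 1262 genes took 19.9%, 19.8%, 18.2%, 13.4%, 19.1%, 12.9% and 17.6%. Both sets were chosen by their values in these embryos, so these shares describe the size of the pattern and are no test of it. In both sets embryos 3 and 7 lay between embryos 4 and 6 and embryos 1, 2 and 5.

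The genes high in embryos 4 and 6 had larger CVs than those low there, again as a description of sets chosen by these values. A CV is also larger when a pair of the embryos is high than when it is low by the same fold. Part of the difference in CV therefore follows from the measure. Their median CV was 30.7%, against 22.9% in the 1262 genes and 22.1% over all 9584. A CV over 50% was found in 261 of the 1230 genes (21.2%) and in 58 of the 1262 (4.596%), against 6.73% of all genes. A range of 10-fold or more was found in 97 and 15 genes, respectively. Their median levels were 48.5 and 63.4 CPM, against 46.9 CPM over all genes. Of the 500 genes with the largest CV, 213 (42.6%) had embryos 4 and 6 as the highest pair. In these 213 genes the median level was 10.1, 9.41, 14.6, 37.4, 8.78, 49.7 and 16.3 CPM in embryos 1 to 7. The embryo in the third place was embryo 7 in 98 of them, embryo 3 in 47 and embryo 2 in 35.

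Counted by single embryos, embryo 6 was highest in 1823 of the 9584 genes (19.02%) and lowest in 2171 (22.7%), the most in both directions. Embryo 7 was highest in the fewest, 935 genes (9.76%), and embryo 3 lowest in the fewest, 837 genes (8.73%). Among the 500 genes with the largest CV (55.8% or more), embryo 6 was highest in 228 (45.6%), embryo 4 in 105 and the other embryos in 23 to 49 each. Choosing the 500 by the SD of log2(CPM + 1) shared 411 genes with this list and had embryo 6 highest in 210. Choosing them by the spread over the edgeR trend shared 310 and had embryo 6 highest in 214. In each of these lists a gene could reach the mean of 10 CPM through its highest embryo. The labels give no property in which embryos 4 and 6 differ from the other embryos. These embryos also had the largest shares of reads in genes from 1 to 10 CPM, at 2.197% and 2.17%, and the part of this difference in the axis was not tested.

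**Figure D5:**
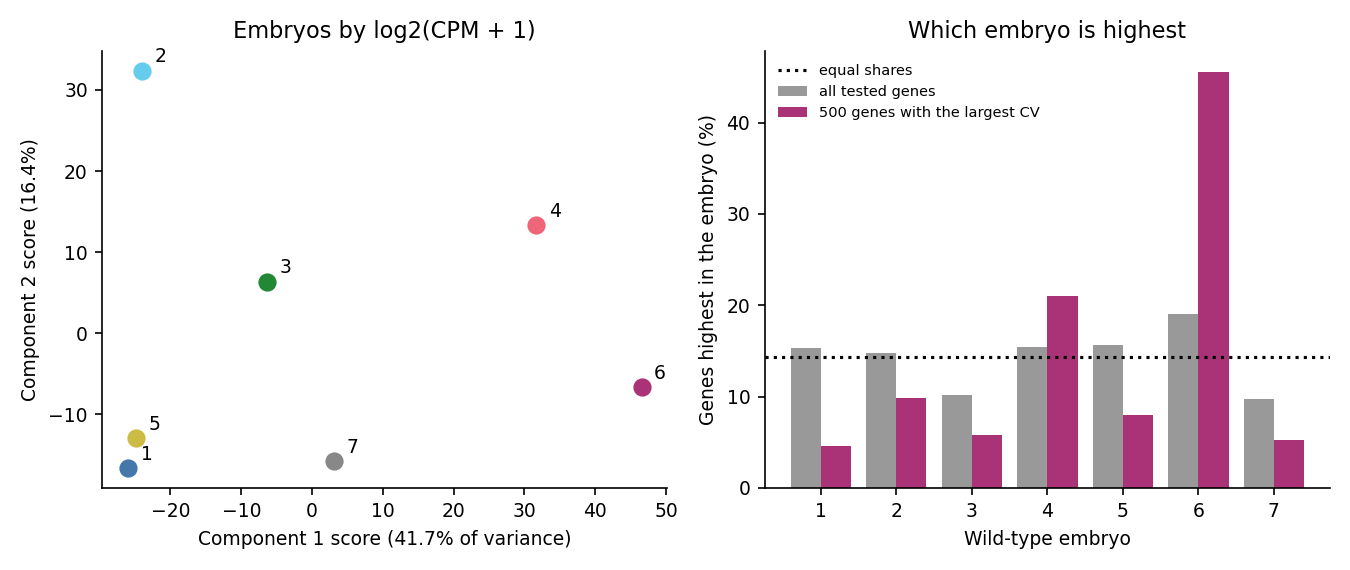
Left, scores of the 7 wild-type embryos, numbered, on the first and second principal components of log2(CPM + 1) over 9584 genes. Right, percentage of genes in which each embryo was highest, for all tested genes and for the 500 genes with the largest CV, with a dotted line at equal shares. Embryo 6 was highest in 19.02% of all tested genes and in 45.6% of the 500.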

How the data were processed

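RNA was sequenced from single blastocysts after TRIzol extraction, cDNA amplification by a modified mcSCRB-seq protocol and tagmentation, per the labels' protocols. The authors deposited raw counts, that is, unscaled whole numbers of reads for each gene. The submitters' processing notes name build ARS-UCD1.2 (bosTau9), HISAT2 2.2.1, SAMtools 1.17 and featureCounts 2.0.1. The gene annotation, its strand setting and any molecular identifiers were not given in the sources used here. Counts of genes that overlap, lie antisense or have near-identical copies are therefore uncertain.

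All 12 columns were matched to samples by name and the 7 wild-type columns used. CPM used column totals. Spread was fitted with edgeR 4.0.16 in R 4.3.3 on genes averaging 10 CPM or more (trended dispersion, robust quasi-likelihood, the earlier form of deviances) and tested on simulated data. DESeq2 1.42.0 was an alternative. Embryo-level relations used exact permutation over all 5040 pairings. The thinned counts were drawn once with a fixed seed. Figures were drawn with matplotlib 3.10.9, and other steps ran in Python 3.11.15 with pandas 2.3.3, scipy 1.17.1 and numpy 2.4.6.

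The embryos, gene lists and rules were chosen with earlier results of these data known. The planned lists of tissue markers and 3 planned relations between them could not be run without symbols. The rule for named genes was the highest mean, largest spread over trend and smallest CV, with at most 4 identifiers where no symbol exists. The first of each rule and the second by spread over trend are printed, and other genes are given by rank.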

Additional observations from a re-analysis of the deposited data

Results flagged for a closer look

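Embryo 6 stood apart from the other embryos in the number of genes with over 50% of their summed CPM in 1 embryo. It had 27 such genes, embryo 4 had 8 and the other embryos 0 to 3, so that its gap to the next embryo exceeded the critical share of the range that Dixon's test sets for 7 samples. Such genes could reach the mean of 10 CPM through the embryo in which they were high, and they are not independent of each other. The count therefore describes the pattern of embryo 6 and is no separate test of it.

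Embryo 7 stood apart in the level of ENSBTAG00000015792, at 228.1 CPM against at most 0.594 CPM in the other 6 embryos. This gene was chosen for its spread, so a value apart follows from the choice. In all 24 groups of values were examined, and chance sets apart about 1 in 20.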

How the results depend on the processing

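For genes spread above the trend, in place of 0, leaving out each embryo gave 0 to 13, DESeq2 marked 151, and 1 spread per abundance (chosen after the data were examined) gave 1090. It was 0 under TMM, RLE and upper quartile scaling, minimums of 1 and 50 CPM, bias-adjusted deviances, thinning and a threshold of 0.01. Genes below the trend were 0 in every edgeR alternative. Genes detected per embryo, 16922, became 14710 at 3 reads and 12113 at 10 reads, and 16782 to 17014 without each embryo. The correlation of total reads with the share of the 50 most abundant genes ran from -0.815 (without embryo 4, exact permutation p = 0.0361) to -0.459, and that with genes detected from 0.158 to 0.5675. The first component held 35.1% to 47.3% of variance without each embryo. Embryo 6 remained at its end whenever present, with embryo 4 next whenever both were present. The mean level of ENSBTAG00000015792 was 0.169 CPM without embryo 7, and that of ENSBTAG00000021119 32.7 CPM without embryo 6. Of the 140 alternatives to 16 results, 133 kept their side of the threshold or moved by less than the spread or 1.5 times. Leaving out 1 embryo cannot move a mean by as much as the SD between embryos. For levels and genes detected, those alternatives could therefore only be counted as kept, and the tally is no measure of stability. No paired analysis was possible because 1 group was described. Depth limits genes under 1 CPM, most of which were not detected in every embryo.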
